A study of Mus musculus with 50 samples.

Results

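The fibrosis matrix and stellate cell genes are 47 named genes that encode collagens, other extracellular matrix proteins, matrix enzymes and their inhibitors, growth factors and markers of hepatic stellate cells, and all 47 were found by symbol among the 45792 rows of a gene count table from mouse liver. The libraries came from C3H/He mice, an inbred strain that develops liver tumours with age, and were harvested at 48 weeks. The 6 groups were non-tumour liver on the control diet (12 libraries, N1 to N12), non-tumour liver on the ALIOS diet (11, N13 to N23), 1 tumour on the control diet (T7), 12 tumours on the ALIOS diet, 5 tumours on the control diet with DEN (T17 to T21) and 8 tumours on the ALIOS diet with DEN (T15, T16 and T22 to T27). ALIOS is the American lifestyle diet, rich in trans-fat with fructose in the drinking water, and DEN is the liver carcinogen diethylnitrosamine, whose dose is not given in the sources used here. A further library labelled as an ALIOS tumour, T1, was left out because its albumin transcript, Alb, stood at 24.7 CPM (counts per 1000000 of the library, TMM-scaled) against 46350 or more in every other liver or tumour library. The summed level of 7 kidney genes was 28610 CPM in T1 and at most 22.64 CPM in any other library. Neither diet had a DEN-treated non-tumour liver, so DEN and tumour cannot be told apart in any comparison of DEN tumours with liver, and the labels tie no tumour to a liver from the same mouse. In pieces of whole tissue a lower transcript level can mean fewer cells of a type or less RNA per cell, and these cannot be told apart.

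Hepatic stellate cells are the vitamin A-storing pericytes of the liver sinusoid. On injury they can lose their retinoid stores, take on a contractile myofibroblast state and secrete fibrillar collagen, while TGF-beta and PDGF signals drive that change and the balance of metalloproteinases and their tissue inhibitors sets how much matrix stays. Scar collagen (types I and III) differs from the basement membrane around vessels and sinusoids, which is built of type IV collagen, laminins and nidogen.

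Library totals ran from 23798251 to 45751398 counts. Several libraries were the highest of their group for many of the matrix genes. N17 held the highest level among the ALIOS livers for 37 of 47 genes, and T24 exceeded each of the other 7 ALIOS DEN tumours for 29 of 47 and each of the other 48 libraries for 20. The bile duct keratin Krt19 was 62.9 CPM in T24 against at most 1.67 CPM in the other 7, and Alb was 62000 CPM in T24 and 56630 CPM in the lowest of the other 7, whose median was 155700 CPM. Among the control diet DEN tumours T17 was highest for 31 of 47 genes. The share of all genes for which N17, T24 or T17 was highest was not counted. Whether these counts are particular to the matrix genes was therefore not tested. The summed level of 19 quiescent stellate cell genes was 412.4 CPM in T24 against 160.4 to 238.1 CPM in the other 7 and 420.2 CPM in N17 against 238.5 to 356.8 CPM in the other ALIOS livers. A sum of CPM weighs its highest genes most. Of the set's own stellate cell genes, Lrat (3.37 CPM) and Reln (115.7 CPM) in T24 lay within the range of the other 7. Acta2 (66.3 CPM) and Des (8.72 CPM) lay above it. Results for the 47 genes that rest on T24 or N17 are given with and without them. Counts and fold changes of the other gene lists are given only with both libraries included. The part of cell makeup in the results was not tested.

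To show what stands upstream of genes with contrasting behaviour, the 250 bases before the transcription start are printed for Mmp13, the collagenase most changed by diet, the scar collagen gene Col3a1, the matricellular gene Tnc and the retinoid enzyme gene Lrat, which fell in tumours (RefSeq, GRCm38.p6, the assembly known as mm10). Capitals mark matches on either strand to any of 6 short motifs, CCAAT (the CCAAT box), GGGCGG (the GC box), TATAAA (the TATA box), TGANTCA (an AP-1 motif), GGAATG (a TEAD motif) and CAGAC (a SMAD motif), and a match is only a match of letters.
Mmp13, chr9:7272264-7272513, plus strand: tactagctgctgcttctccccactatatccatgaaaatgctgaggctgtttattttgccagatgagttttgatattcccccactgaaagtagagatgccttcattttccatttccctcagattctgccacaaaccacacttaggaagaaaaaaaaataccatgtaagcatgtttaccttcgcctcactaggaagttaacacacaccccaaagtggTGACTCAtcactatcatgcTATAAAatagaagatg
Col3a1, chr1:45311288-45311537, plus strand: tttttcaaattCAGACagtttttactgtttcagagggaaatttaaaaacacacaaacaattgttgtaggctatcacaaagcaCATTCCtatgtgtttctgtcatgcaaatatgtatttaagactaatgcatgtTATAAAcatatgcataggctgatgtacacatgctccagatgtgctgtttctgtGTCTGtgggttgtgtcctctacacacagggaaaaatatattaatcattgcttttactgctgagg
Tnc, chr4:64047016-64047265, minus strand: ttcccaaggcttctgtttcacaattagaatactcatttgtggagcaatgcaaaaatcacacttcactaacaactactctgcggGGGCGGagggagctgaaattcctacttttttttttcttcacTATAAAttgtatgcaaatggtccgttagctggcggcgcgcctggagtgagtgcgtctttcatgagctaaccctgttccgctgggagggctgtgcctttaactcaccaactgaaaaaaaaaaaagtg
Lrat, chr3:82903975-82904224, minus strand: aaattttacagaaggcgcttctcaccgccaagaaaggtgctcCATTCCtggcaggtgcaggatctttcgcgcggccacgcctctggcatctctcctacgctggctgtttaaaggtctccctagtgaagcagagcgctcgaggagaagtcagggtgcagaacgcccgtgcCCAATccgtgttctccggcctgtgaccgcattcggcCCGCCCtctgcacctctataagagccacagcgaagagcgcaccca

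The Mmp13 window held the AP-1 letters 35 to 29 bases and TATAAA 16 to 11 bases before the start, and the Col3a1 window held TATAAA, TEAD and CAGAC letters. In Tnc a GC box and TATAAA matched, and in Lrat CCAAT, a GC box and the TEAD letters. Of 32851 windows of this length, 6.75% held TGANTCA, 12.4% TATAAA, 12.6% GGAATG, 32.7% GGGCGG, 33.8% CCAAT and 42.2% CAGAC. RefSeq windows were at hand for 30 of the 47 genes, in 34 windows because some genes have several starts. Of those 34, 2 held TGANTCA, 6 TATAAA, 7 GGAATG, 21 GGGCGG, 12 CCAAT and 14 CAGAC.

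Levels were compared between genes only per length, as RPKM (CPM per kilobase of annotated exon). In control diet liver Fn1, the gene of fibronectin, led with a median of 136.6 RPKM, followed by Col18a1, the parent of endostatin and a hepatocyte product, at 125.9 RPKM and the small proteoglycan gene Dcn at 21.8 RPKM. ALIOS liver had the same leading genes, at 124.7, 121.2 and 25.1 RPKM. In control diet DEN tumours Sparc, which encodes a collagen-binding matricellular protein, had the highest median at 246.9 RPKM, ahead of Fn1 at 189.2 and Col18a1 at 97.3 RPKM, and Nid1, which encodes the basement membrane linker nidogen, came next at 48.0 RPKM. Each order is of medians, and the ranges of neighbouring genes such as Fn1 and Col18a1 were not compared by a test.

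On the ALIOS diet the non-tumour liver carried more transcript of 11 of the 47 genes, which have several different roles. Mmp13, Postn, Col14a1, Tgfb1, Nid1, Loxl2, Thbs1, Tnc, Col1a2, Col3a1 and Pdgfrb rose, by 1.52-fold (Pdgfrb) to 5.36-fold (Mmp13), and none of the 47 genes fell. The 11 called genes are 11 of the 43 that passed the filter on low counts, where 6.73% of all 13723 genes tested were called higher, 4.51% lower and 11.2% either way (edgeR's quasi-likelihood test, Benjamini-Hochberg adjusted p under 0.05). The median log2 fold change of the 43 was 0.51, against -0.02 over all genes tested. For none of the 47 were the 11 ALIOS livers all above or all below the 12 control livers, with N17 or without it, against 0.0802% and 0.00729% of all genes with it and 0.0799% and 0.00726% without it. Lox, Mfap4, Timp1 and Vcan were too low to be tested.

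Mmp13, an interstitial collagenase, ranged from 0.0636 to 0.756 CPM with a median of 0.227 CPM in control diet liver and from 0.143 to 5.75 CPM with a median of 1.14 CPM in ALIOS liver. The groups overlapped at the low end, and 5.75 CPM is still a low level. The log2 fold change was 2.42 ± 0.48 (SE, adjusted p = 0.00438), and it was 2.40 ± 0.50 without N17 (adjusted p = 0.00858). Postn, the gene of the matricellular protein periostin, ran from 4.31 to 10.2 CPM (median 6.29 CPM) in control and from 5.97 to 28.4 CPM (median 11.6 CPM) in ALIOS liver. Its log2 fold change was 0.91 ± 0.22 (adjusted p = 0.0114). Tgfb1, the best-known profibrotic ligand, had medians of 3.72 and 5.82 CPM and a log2 fold change of 0.63 ± 0.16 (adjusted p = 0.015). Col14a1, a fibril-associated collagen, had medians of 33.4 and 54.8 CPM and a log2 fold change of 0.66 ± 0.16 (adjusted p = 0.0131). Loxl2, a collagen crosslinking oxidase, and Nid1 rose by 0.78 ± 0.21 and 0.61 ± 0.17 on the log2 scale (adjusted p = 0.0206 for both).

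Calls of the fibrillar collagens depended on single livers. Col3a1 ran from 5.96 to 25.04 CPM (median 11.1 CPM) in control liver and from 8.66 to 104 CPM (median 14.9 CPM) in ALIOS liver, where N17 held the 104 CPM. Col1a2 ran from 2.10 to 9.32 CPM (median 4.13 CPM) and from 2.53 to 43.5 CPM (median 5.18 CPM). Both were called higher, with log2 fold changes of 1.17 ± 0.38 and 1.30 ± 0.41 (adjusted p = 0.0465 and 0.0425), and without N17 neither was called, at 0.66 ± 0.29 and 0.73 ± 0.31 (adjusted p = 0.159 and 0.152). Col1a1 had the larger fold change, 1.70 ± 0.64, and did not pass the test (adjusted p = 0.0812). Col1a1 was called in DESeq2, and in edgeR when N10 or N13 was left out. Its levels ran from 0.377 to 9.61 CPM in control and from 0.464 to 28.9 CPM in ALIOS liver, with medians of 1.28 and 2.21 CPM. Without N17 the count of called genes fell from 11 to 6, where 4.42% of all genes were called higher, 2.47% lower and 6.89% either way, and Pdgfrb, Tnc and Thbs1 were lost with the collagens. It was 17 without N13, where 9.12% of all genes were called higher and 7.85% lower. It was 7 without any one of N1, N2, N3, N4, N7, N8, N15 or N22. There 5.07% to 6.06% of all genes were called higher and 2.73% to 3.93% lower.

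Of the 4 stellate and contractile genes of the set (Acta2, Lrat, Des and Reln) none was called. Acta2, the smooth muscle actin of myofibroblasts, had medians of 1.502 and 1.535 CPM with a log2 fold change of 0.41 (95% interval -0.62 to 1.43). Lrat, which makes the retinyl esters that quiescent stellate cells store, had medians of 21.2 and 19.6 CPM with a log2 fold change of 0.28 (95% interval -0.12 to 0.68). Timp1, which encodes an inhibitor of metalloproteinases, was among the untested genes, at medians of 0.141 and 0.579 CPM. Among 19 further genes of quiescent stellate cells 18 were tested, 2 rose and 1 fell, and the largest rise was in Pparg (log2 fold change 4.04 ± 0.60, adjusted p = 0.000557), a lipid regulator that hepatocytes and fat cells also make. Colec11 rose by 0.35 ± 0.12 and Hhip fell by 1.32 on the log2 scale. Of 10 tested genes of the myofibroblast and smooth muscle list 3 rose and none fell, among them Spp1 (osteopontin, also made by bile duct cells and macrophages) by 1.33 ± 0.40 and Synpo2 by 0.90 ± 0.27. Of 15 macrophage genes 11 rose and none fell, and their summed level ran from 506.3 to 1277 CPM in ALIOS against 327.8 to 803.8 CPM in control liver. Of 16 hepatocyte genes none was called. Bile duct markers rose in 3 of 6 tested, and N17 had the highest sum of them, 226.7 CPM, among the ALIOS livers. Spp1 is on the bile duct list too and is counted in both lists. The duct keratin Krt19 was 2.83 CPM in N17. Over all genes tested by diet in liver, 6.73% were called higher and 4.51% lower. Whether the cell types of these lists have a part in the matrix result was not tested.

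**Figure D1:**
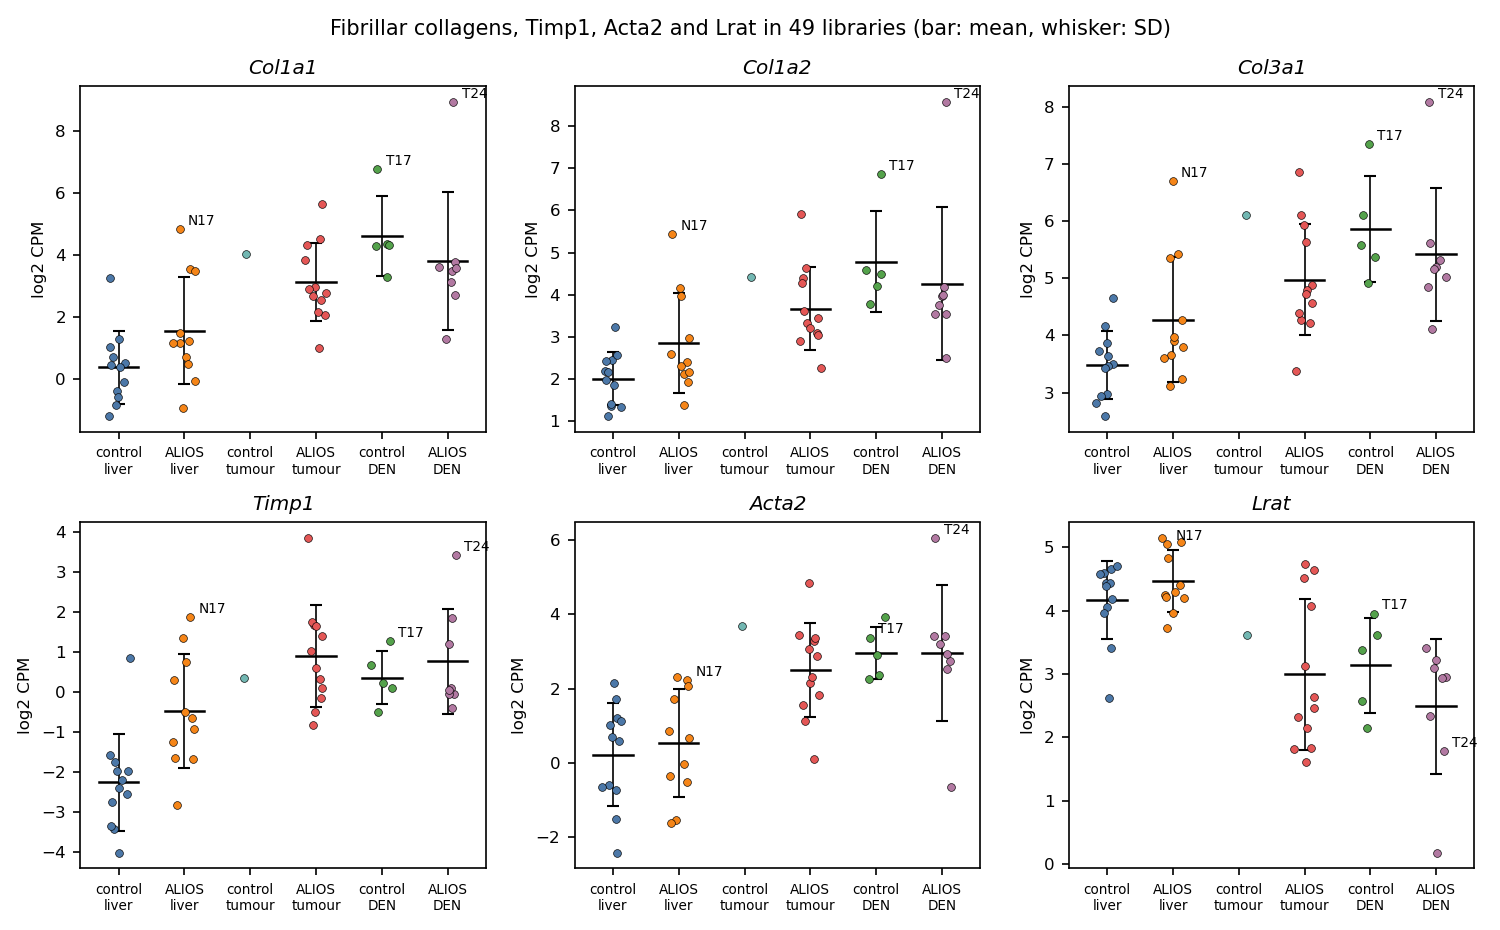
Log2 CPM (y axis) of Col1a1, Col1a2, Col3a1, Timp1, Acta2 and Lrat in the 49 libraries analysed, by group (x axis). Points are libraries, bars the mean, whiskers the SD, and N17, T17 and T24 are marked. T24 stood at 496 CPM for Col1a1 where the other 7 ALIOS DEN tumours lay between 2.39 and 13.8 CPM.

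Within groups Col1a1 and Col3a1 varied together between libraries. Their log2 CPM correlated at r = 0.853 and rho = 0.825 over the 12 control livers, r = 0.969 and rho = 0.900 over the 11 ALIOS livers and r = 0.976 and rho = 0.965 over the 12 ALIOS tumours. The adjusted permutation p-values over 15 such tests were 0.0022, 7.5e-05 and 7.5e-05 for r (two-sided) and 0.00785, 0.00263 and 0.00015 for rho, and 1e-05 before adjustment is the smallest value these permutations can give. Without the 2 libraries farthest from the median r was 0.745, 0.936 and 0.940. Timp1 went with Col1a1 in the ALIOS livers at r = 0.862 and rho = 0.836 (adjusted permutation p = 0.00255 and 0.00825), and r was 0.752 without the 2 farthest. It did not pass in the control livers, at r = 0.636 (adjusted permutation p = 0.0715) and -0.194 without the 2 farthest, or in the ALIOS tumours, at r = 0.179 (adjusted permutation p = 0.617). For Acta2 r was 0.594, 0.688 and 0.639 in the 3 groups (adjusted permutation p = 0.0711, 0.0492 and 0.0546) and rho did not pass in any (0.0941 for each). Lrat did not pass in any group, with r of 0.103, 0.415 and 0.375 and adjusted permutation p-values of 0.722, 0.284 and 0.293. For the macrophage gene Cd68, r was 0.703 over the control livers (adjusted permutation p = 0.0483) and 0.124 without the 2 farthest, so it rested on those livers, and 0.564 and 0.339 in the other two groups (adjusted permutation p = 0.109 and 0.323).

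In tumours of mice on the ALIOS diet without DEN, 4 of 7 basement membrane genes rose and 2 fell, 3 of 5 matricellular genes rose and none fell, and Col1a1, Col1a2 and Col3a1 were not called. Nid1, Sparc, Mmp14, Col4a1, Col4a2, Lamc1, Col5a2, Thbs1, Tnc, Tgfb3, Eln, Acta2, Reln, Timp1 and Timp3 were higher than in ALIOS liver, and Lrat, Dcn, Col15a1 and Col18a1 were lower. These are 15 higher and 4 lower of 44 tested, against 26.9% and 25.9% of all 14183 genes (52.8% either way), so a call in itself is common here. The median log2 fold change was 0.46 for the 44 and 0.01 over all genes.

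Nid1 ran from 9.38 to 29.9 CPM with a median of 13.97 CPM in ALIOS liver and from 16.03 to 416 CPM with a median of 190 CPM in ALIOS tumours. T2 lay within the range of the livers and the rest above it. The log2 fold change was 3.78 ± 0.39 (adjusted p = 1.63e-07). Sparc ran from 42.6 to 126 CPM (median 63.9 CPM) in liver and from 89.3 to 1179 CPM (median 375 CPM) in tumours, a log2 fold change of 2.68 ± 0.38 (adjusted p = 4.4e-06). Its groups overlapped only through N17, and without N17 every tumour was above every liver, against 1.81% of all genes higher and 3.77% lower in that way. With N17 none of the 47 was free of overlap, against 1.3% and 3.19% of all genes. Mmp14, the membrane-bound metalloproteinase that activates other ones, had medians of 18.5 and 40.2 CPM and a log2 fold change of 1.16 ± 0.16 (adjusted p = 4.26e-06). Col4a1 and Col4a2, the paired chains of basement membrane collagen, rose by 1.45 ± 0.27 and 1.55 ± 0.25 on the log2 scale (adjusted p = 0.000108 and 1.76e-05). Lamc1, a laminin chain, rose by 1.05 ± 0.18 (adjusted p = 3.64e-05), whereas its partner Lamb1 had medians of 4.15 and 3.87 CPM and was not called.

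The genes that fell were Lrat of stellate cells, the proteoglycan gene Dcn and the collagen genes Col15a1 and Col18a1. Of the other stellate cell genes Reln and Acta2 rose and Des was not called. Lrat ran from 13.1 to 35.3 CPM (median 19.6 CPM) in ALIOS liver and from 2.98 to 26.7 CPM (median 5.80 CPM) in tumours. T2, T3, T5 and T6 lay within the range of the livers and the rest below it. Its log2 fold change was -1.11 ± 0.37 (adjusted p = 0.0148). Dcn, the gene of decorin, ran from 122 to 264 CPM in liver and from 17.9 to 173 CPM in tumours, with a log2 fold change of -1.25 ± 0.35 (adjusted p = 0.00477). Col15a1 and Col18a1, the multiplexin collagens of basement membrane zones, fell by 0.60 ± 0.18 and 0.27 ± 0.08 on the log2 scale (adjusted p = 0.00785 and 0.00666).

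Whether Col1a1, Col1a2 and Col3a1 were called in these tumours depended on N17, whereas the fibrillar collagen Col5a2 was called with and without it. Col1a1 had a median of 7.17 CPM in tumours (1.94 to 50.2 CPM) and 2.21 CPM in ALIOS liver, and its log2 fold change of 1.05 ± 0.62 was not called (adjusted p = 0.161). Without N17 it was 1.76 ± 0.58 (adjusted p = 0.0145). Col1a2 and Col3a1 went from 0.60 and 0.52 (adjusted p = 0.299 and 0.335) to 1.15 and 1.02 (adjusted p = 0.0245 and 0.0303), and the counts became 22 higher and 4 lower, where 26.5% and 25.4% of all genes were called (51.9% either way). Without T5, 7 genes were lower instead of 4, Col14a1, Pdgfra and Bgn among them, where 22.3% of all genes were lower and 30.2% higher. Acta2 rose in either case, at 1.86 ± 0.53 (adjusted p = 0.00524), from a median of 1.535 CPM in liver to 6.12 CPM in tumours. Timp1 rose by 1.38 ± 0.58 (adjusted p = 0.0494) and lost its call without T6 or T11. Its level was 14.2 CPM in T13 and at most 3.28 CPM in the other ALIOS tumours, and no fit left out T13.

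**Figure D2:**
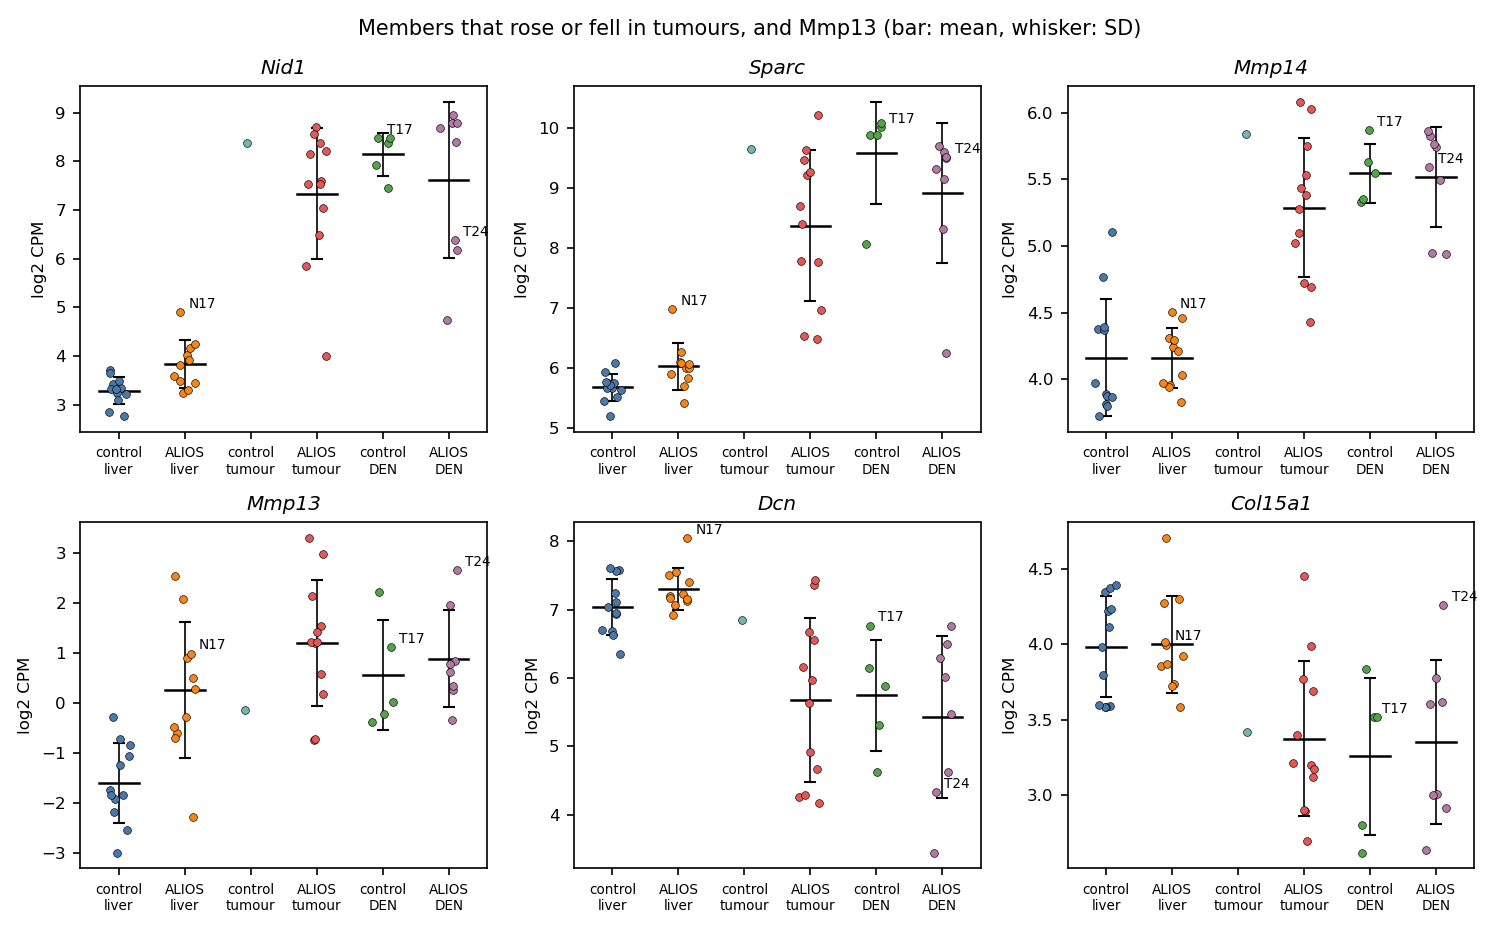
Log2 CPM (y axis) of Nid1, Sparc, Mmp14, Mmp13, Dcn and Col15a1 in the 49 libraries analysed, by group (x axis). Points are libraries, bars the mean, whiskers the SD, and N17, T17 and T24 are marked. The median of Nid1 was 13.97 CPM in ALIOS liver and 190 CPM in ALIOS tumours.

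DEN tumours on the ALIOS diet held more Nid1, Sparc, Mmp14, Thbs1 and type IV collagen than ALIOS liver, and less Lrat, Dcn and Col14a1. Of 46 genes tested 19 rose and 7 fell, against 27.7% and 19.8% of all 14434 genes (47.5% either way). The livers of this comparison are the same 11 as in the comparison of spontaneous tumours, so the values are given side by side and not as separate evidence. Nid1 ran from 26.8 to 496 CPM (median 374 CPM), and its log2 fold change was 4.27 ± 0.45 (adjusted p = 5.88e-07). Mmp14 was higher in every tumour (30.6 to 58.0 CPM) than in any liver (14.2 to 22.6 CPM), and the log2 fold change was 1.39 ± 0.13 (adjusted p = 1.6e-07). Dcn (10.8 to 108 CPM) and Lrat (1.07 to 10.6 CPM) were lower in every tumour than in any liver. These are 1 gene higher and 2 lower without overlap, against 4.18% and 4.83% of all genes. Without T24 the counts were also 1 and 2 (5.24% and 6.18% of all genes), and without N17 Nid1 joined Mmp14, giving 2 and 2 (4.82% and 5.41%).

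Lrat fell by 1.79 on the log2 scale (SE 0.32, adjusted p = 0.000172) and Dcn by 1.53 (SE 0.35, adjusted p = 0.00125). Sparc rose by 3.10 ± 0.31 (adjusted p = 2.9e-07), Col4a2 by 1.75 ± 0.27 (adjusted p = 3.92e-05) and Thbs1, a matricellular activator of latent TGF-beta, by 2.99 ± 0.49 (adjusted p = 6.1e-05). Col14a1, the proteoglycan gene Bgn and Pdgfra, a PDGF receptor of stellate cells and fibroblasts, fell by 0.76, 0.69 and 0.82 on the log2 scale (SE 0.18, 0.22 and 0.26; adjusted p = 0.00209, 0.0139 and 0.0139).

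The calls of Col1a1 and Col1a2 rested on T24. Col1a1 was 496 CPM in T24 and 2.39 to 13.8 CPM in the other 7, Col1a2 384 CPM with a median of 13.5 CPM in the other 7, and Col3a1 272 against 17.3 to 48.7 CPM. With all 8 tumours the log2 fold change of Col1a1 was 3.48 ± 1.002 (adjusted p = 0.00779), and without T24 it was 0.67 ± 0.66 (adjusted p = 0.414). Col1a2 went from 2.44 ± 0.78 (adjusted p = 0.0149) to 0.33 ± 0.49 (adjusted p = 0.597), and Col3a1 was called in neither case (adjusted p = 0.0745 and 0.523). Leaving out N17 as well as T24 gave a call to Col1a1, at 1.36 ± 0.55 (adjusted p = 0.0464), and Col3a1, at 0.84 ± 0.32 (adjusted p = 0.0357), and not to Col1a2 (0.86 ± 0.36, adjusted p = 0.0507). Lox, the prototype lysyl oxidase, stood at 12.8 CPM in T24 and at most 1.24 CPM in the others. Its log2 fold change was 3.68 ± 0.91 with T24 and 1.79 ± 0.68 without it (adjusted p = 0.00274 and 0.0333). Tnc moved from 3.39 ± 0.80 to 1.14 ± 0.43 (adjusted p = 0.00181 and 0.0344).

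Without T24, 15 genes rose and 9 fell, against 29.8% and 22.6% of all 14506 genes (52.5% either way), and without N17 the counts were 21 and 6 (25.4% and 20.7%, 46.1% either way). Without T24 Col1a1, Col1a2, Fbn1 and Eln were lost, and Timp2 and Mmp9 were called lower. Nid1, Sparc, Mmp14 and Lrat were close to their values with T24, at 4.41 ± 0.43, 3.06 ± 0.32, 1.40 ± 0.14 and -1.69 ± 0.32 on the log2 scale. The log2 fold change of Acta2 was 2.77 ± 0.67 with T24 and 1.80 ± 0.56 without it, called in both (adjusted p = 0.00228 and 0.012). Mmp9, the gelatinase of inflammatory cells, was 5.72 CPM in T24 and at most 0.545 CPM in the other 7, and its log2 fold change turned from 0.86 to -1.06.

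**Figure D3:**
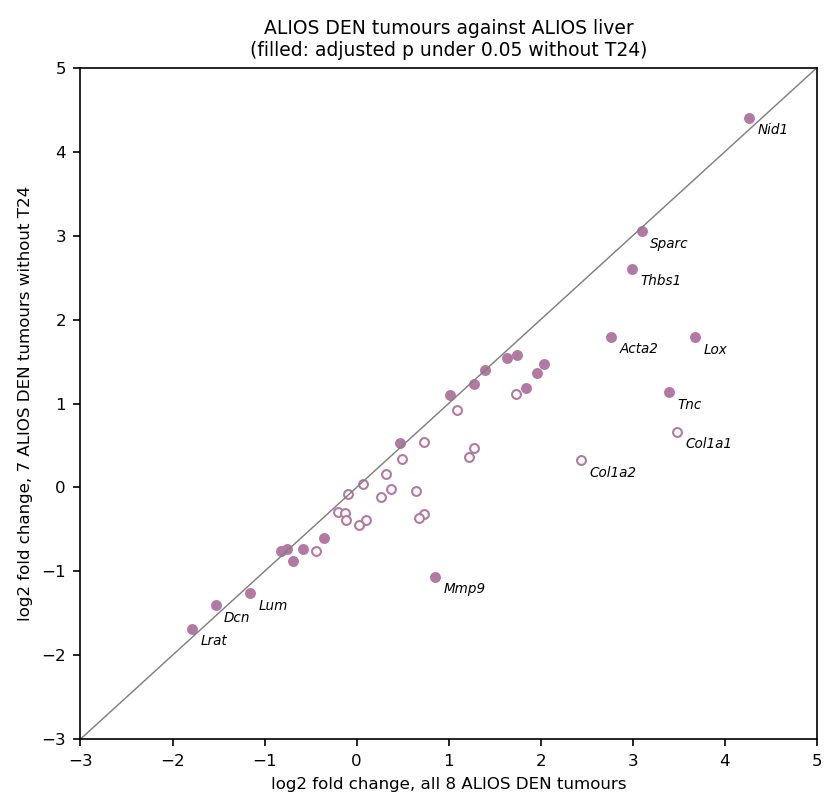
Log2 fold change of the genes tested in ALIOS DEN tumours against ALIOS liver with all 8 tumours (x axis) and with the 7 tumours left without T24 (y axis). Each point is a gene, the line marks equal values, and filled points had an adjusted p under 0.05 without T24. Col1a1 lies at 3.48 and 0.67 while Nid1 lies at 4.27 and 4.41.

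In DEN tumours on the control diet most of the matrix genes were higher than in control diet liver. Of 46 genes tested 34 rose and 4 fell, against 27.3% and 24.4% of all 14731 genes (51.7% either way), and the median log2 fold change was 1.37 against 0.03 over all genes. All 5 fibrillar collagens, all 5 matricellular genes, the 3 crosslinking enzymes and Col6a1, Col6a2 and Col6a3 rose. Every one of the 5 tumours exceeded every one of the 12 livers for 15 genes, against 11.3% of all genes, and Col18a1 was lower in every tumour, against 11% of all genes.

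Col1a1 was 109.5 CPM in T17, 9.86 in T18, 20.7 in T19, 19.5 in T20 and 20.3 in T21, and 0.377 to 9.61 CPM in the control livers. T17 was far above the others and T18 just above the highest liver. The log2 fold change was 4.29 ± 0.60 (adjusted p = 8.17e-06). Col3a1 was 161.9, 30.3, 41.5, 47.9 and 68.9 CPM in T17 to T21 against 5.96 to 25.04 CPM, a log2 fold change of 2.56 ± 0.33 (adjusted p = 2.37e-06). Col1a2 rose by 3.20 ± 0.40 (adjusted p = 2.02e-06) and Col5a2, which helps set fibril width, by 2.75 ± 0.30 (adjusted p = 3.64e-07).

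Nid1 was 355.5, 333.2, 175.6, 243.1 and 354.6 CPM in T17 to T21 against 6.76 to 13.1 CPM in control liver, a log2 fold change of 4.91 ± 0.15 (adjusted p = 8.38e-15). The tumours lay far above the livers. Sparc was 1033, 935.2, 934.6, 1077 and 266.8 CPM against 36.8 to 67.7 CPM, a log2 fold change of 4.06 ± 0.21 (adjusted p = 9.21e-12). T21 was low among the tumours and still above every liver. Lamc1 and Thbs1 rose by 1.45 ± 0.13 and 3.89 ± 0.41 on the log2 scale (adjusted p = 2.5e-08 and 2.68e-07).

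Timp1 rose by 2.37 ± 0.63 (adjusted p = 0.00392), from a median of 0.141 CPM in control liver to 2.35, 1.10, 1.01, 1.53 and 0.640 CPM in T17 to T21. Acta2 rose by 2.44 ± 0.51 (adjusted p = 0.000472), with 10.3, 7.39, 4.70, 5.09 and 15.2 CPM against 0.126 to 4.36 CPM. Lrat was 15.5, 4.36, 10.4, 5.91 and 12.2 CPM against 6.09 to 26.2 CPM. Its log2 fold change was -0.97 ± 0.31 (adjusted p = 0.0123), and the groups overlapped. Dcn, Col15a1 and Col18a1 fell by 1.14, 0.67 and 0.39 on the log2 scale (SE 0.28, 0.20 and 0.10; adjusted p = 0.00185, 0.00811 and 0.00335). Without T17, 30 genes rose and 4 fell, against 24.9% and 22.1% of all 14868 genes, and Thbs2, Col5a1, Mmp2 and Loxl1 lost their calls.

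The other genes of the set in control diet DEN tumours were described by role. Among the fibrillar and network collagens, Col6a3, a chain of microfibrillar type VI collagen, was 20.0, 7.26, 8.12, 7.54 and 10.99 CPM in T17 to T21 against 2.64 to 8.33 CPM in control liver, and rose by 1.38 ± 0.26 on the log2 scale (adjusted p = 0.000178). Col5a1 rose by 0.74 ± 0.27 (adjusted p = 0.028), with only T17 and T21 above every liver. Among the crosslinking enzymes Loxl2 was 8.79, 2.75, 3.23, 4.56 and 4.41 CPM against 0.745 to 2.02 CPM, a rise of 1.85 ± 0.23 (adjusted p = 1.85e-06). Vcan, the gene of the large proteoglycan versican, was 5.13, 1.37, 1.83, 1.13 and 0.922 CPM against a control liver median of 0.266 CPM, and rose by 2.66 ± 0.50 (adjusted p = 0.000186). The small proteoglycan genes Bgn and Lum were not called, with log2 fold changes of -0.11 ± 0.20 and 0.23 ± 0.35. Reln, which encodes reelin and marks stellate cells in the liver, was 158.5, 88.7, 100.7, 110.8 and 143.4 CPM against 19.3 to 59.8 CPM, a rise of 1.64 ± 0.20 (adjusted p = 1.75e-06). Des, the intermediate filament desmin of stellate and muscle cells, was not called (0.20 ± 0.24). So of the stellate cell genes Reln and Acta2 rose, Lrat fell and Des was not called. Among the growth factors Tgfb3 rose by 1.69 ± 0.21 and Tgfb1 by 0.86 ± 0.16 (adjusted p = 2.38e-06 and 0.000195), and Pdgfra was not called (-0.25 ± 0.29). Timp3, a matrix-bound inhibitor, rose by 1.22 ± 0.22 (adjusted p = 0.000137) and Timp2 was not called (-0.21 ± 0.26). Mfap4, of elastic fibres, was too low to be tested in these tumours.

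**Figure D4:**
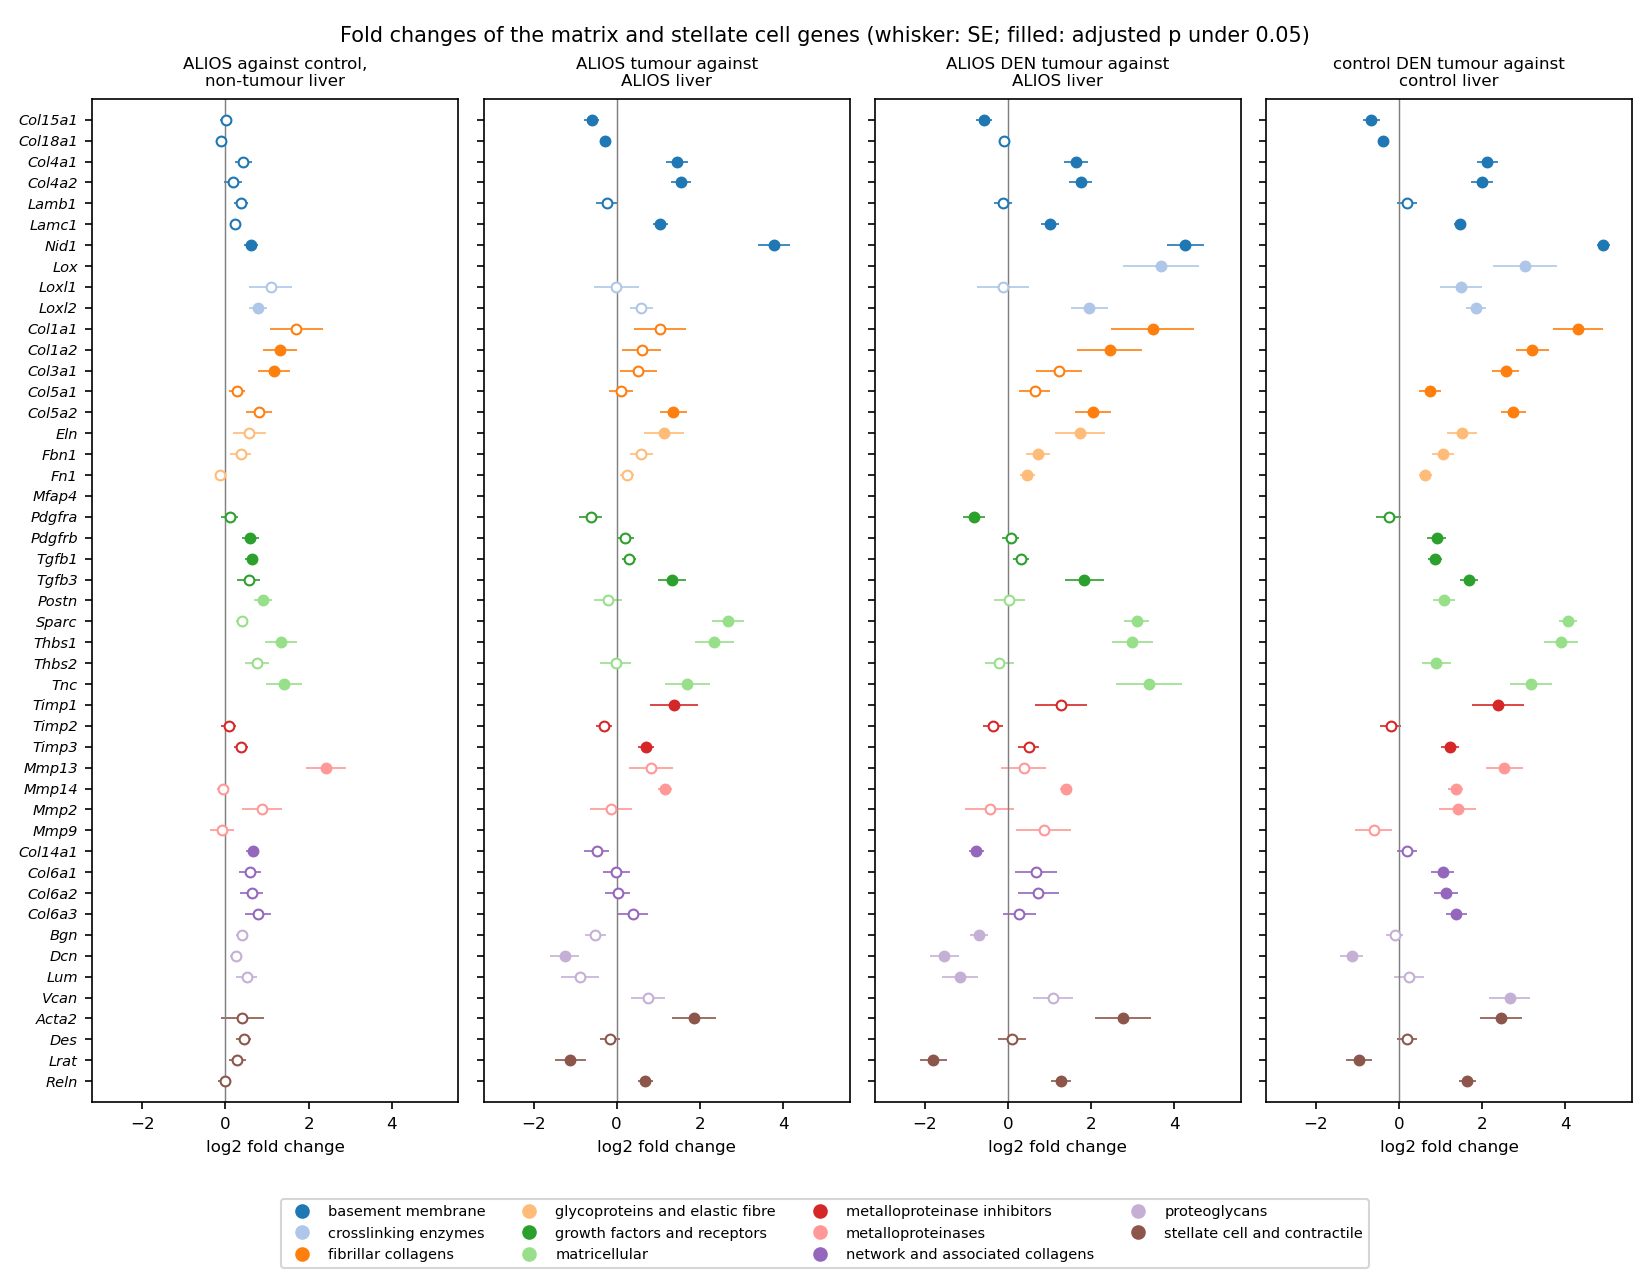
Log2 fold change (x axis) of each of the 47 genes (y axis, coloured by role) in ALIOS against control diet liver and in 3 comparisons of tumours with liver. Whiskers are standard errors, filled points had an adjusted p under 0.05, and a gene with no point was not tested. Nid1 rose by 3.78, 4.27 and 4.91 in the tumour comparisons, and Lrat stood at -1.11, -1.79 and -0.97.

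Between tumours, no gene of the set was called. Of 45 genes tested none was called between ALIOS DEN and ALIOS spontaneous tumours, where 0% of all 14845 genes were called (edgeR; 1079 genes and 4 of the 45 had an unadjusted p under 0.05; DESeq2 called 51 higher and 24 lower, none of the 47). The log2 fold change of Col1a1 was 2.42 (95% interval 0.75 to 4.08, adjusted p = 0.379) and -0.44 (95% interval -1.46 to 0.58) without T24. Those of Col3a1 and Acta2 were 0.67 and 0.87, and turned to -0.21 and -0.12. Lrat was -0.73 (95% interval -1.69 to 0.23). Between ALIOS and control diet DEN tumours, none of 45 genes was called, against 0.0134% of all 14944 genes (2 genes; 1273 genes and none of the 45 had an unadjusted p under 0.05; DESeq2 called 70 higher and 85 lower, none of the 47). Without T24 0.0945% of all genes were called (0.0473% in each direction), none of the set, and 7 of the set had an unadjusted p under 0.05. No member was free of overlap between the diets, against 0.274% of all genes higher and 0.335% lower, or 0.675% each way without T24. Col1a1 was 0.94 (95% interval -1.49 to 3.37) with T24 and -1.93 (95% interval -3.02 to -0.83, adjusted p = 0.197) without it. The intervals are wide, so they do not show that the tumours carry like amounts of collagen.

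The diet effect in DEN tumours minus that in liver had a median of -0.53 over the set against 0.04 over all genes. None of 47 was called, against 2.27% of all 15606 genes, 1.04% higher and 1.23% lower (edgeR; 11 of the 47 had an unadjusted p under 0.05). Without T24 5 were called lower, against 2.59% of all genes lower, 2.12% higher and 4.71% either way, and without N17 none was (1.46% of all genes, 0.649% higher and 0.809% lower). Col1a2 was -2.89 ± 0.69, Col1a1 -3.64 ± 0.98, Col3a1 -2.22 ± 0.61, Postn -1.55 ± 0.43 and Mmp13 -2.55 ± 0.75 on the log2 scale (adjusted p = 0.0136, 0.028, 0.03, 0.0338 and 0.0423). Leaving out T17 as well gave none, against 1.19% of all genes higher and 1.66% lower. Leaving out N17 with T24 gave 2, Col3a1 and Col1a2, against 1.38% and 1.76%. DESeq2 called 4 lower (Col1a1, Col6a2, Col14a1 and Col1a2), against 2.15% of all genes lower and 2.06% higher. It replaced an outlying count in 4 of the 47 genes, Col1a1 and Col1a2 among them. The ALIOS and control livers of this contrast are those of the diet comparison above.

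Pathway genes outside the set were counted in the same tumour comparisons, where 26.9%, 27.7% and 27.3% of all genes rose and 25.9%, 19.8% and 24.4% fell in spontaneous ALIOS, ALIOS DEN and control diet DEN tumours. Of 29 tested TGF-beta and PDGF pathway genes 13 rose and 2 fell in spontaneous ALIOS tumours, 14 rose and none fell in ALIOS DEN tumours, and 16 rose and none fell in control diet DEN tumours. The ligand gene Tgfb2 rose by 3.12 ± 0.44, 3.32 ± 0.51 and 4.37 ± 0.31 on the log2 scale (adjusted p at most 3.55e-05). By diet in liver 2 of 27 tested rose and 1 fell, where 6.73% of all genes rose and 4.51% fell. Tgfbr2 rose by 1.11 ± 0.20 and Ctgf by 0.87 ± 0.28, and Smad3 fell by 0.25. Of 21 tested genes of collagen synthesis and processing 14 rose and 2 fell in control diet DEN tumours, 6 and 1 in ALIOS DEN tumours and 7 and 2 in spontaneous ones. Adamts14, a procollagen N-proteinase, rose in each, by 4.21 ± 0.27, 3.53 ± 0.30 and 3.73 ± 0.43. Of 19 tested other matrix proteases and regulators 10, 9 and 11 rose and 3, 3 and 4 fell in spontaneous ALIOS, ALIOS DEN and control diet DEN tumours, and the plasminogen activator gene Plat rose by 3.59 ± 0.47, 7.70 ± 1.11 and 4.49 ± 0.41. Mmp12, a macrophage elastase, rose in ALIOS liver by 3.19 ± 0.56. The values of these lists include T24 and N17 and were not counted again without them.

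Markers of resting and contractile matrix-making cells and of other cell types were counted in the same 3 tumour comparisons, in the same order. Over all genes 26.9%, 27.7% and 27.3% rose there and 25.9%, 19.8% and 24.4% fell. Of the quiescent stellate cell list 3 rose and 9 fell of 17 tested in spontaneous tumours, 3 and 9 of 17 in ALIOS DEN tumours, and 4 and 11 of 18 in control diet DEN tumours. The summed level in control liver ran from 187.6 to 338.5 CPM and in control diet DEN tumours from 156.2 to 274.3 CPM. Ngfr, a neurotrophin receptor of stellate cells, fell by 1.44, 1.70 and 2.05 on the log2 scale. Of the myofibroblast and smooth muscle list 3 of 10, 6 of 10 and 9 of 12 rose and none fell. Of the portal fibroblast list 3 rose and 1 fell of 8, 5 and 1 of 9 and 5 and 1 of 8. Cd34 rose by 2.43 ± 0.40, 2.27 ± 0.39 and 3.68 ± 0.30, and Gas1 was the gene that fell each time. Cd34 is also on the endothelial list below and is counted in both, so its rise is not specific to portal fibroblasts. Hepatocyte genes were called in both directions (3 higher and 8 lower, 3 and 5, 3 and 6 of 16). The median log2 fold change of the 16 was -0.423, -0.116 and -0.405. Alb, among those that rose, had medians of 148400 CPM in spontaneous tumours and 74590 CPM in ALIOS liver. Proliferation genes rose in 6, 8 and 8 of 8. Macrophage genes were 1 higher and 9 lower, 2 and 2, and 5 and 4 of 15. Among the further lists, endothelial genes were 4 higher and 1 lower, 5 and 1, and 6 and 3 of 14, and bile duct genes 2, 2 and 3 higher of 6. Spp1 is on the bile duct and the myofibroblast list and is counted in both. The part of these cell types in the matrix results was not tested.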

How the data were processed

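RNA-seq was done on liver and tumour pieces of C3H/He mice (stranded mRNA libraries, 100 bp paired reads). The files hold raw read counts for each gene, deposited as the authors made them with STAR (mm10) and HTSeq on Gencode M6 exons. Versions are not given in the sources used here. All 50 columns mapped to a sample. The 47 genes and the gene lists were chosen with earlier results of these data known. Counts were tested with edgeR 4.0.16 (filterByExpr, TMM, glmQLFit, glmQLFTest), only the groups compared entering each fit and T1 left out, over all genes tested with Benjamini-Hochberg adjustment at 0.05. Standard errors are of the log2 fold change and intervals are 95%. Levels are CPM with TMM factors, plotted as log2 CPM with a prior count of 2, and RPKM on Gencode M21 exon lengths. Correlations used 100000 permutations. Named genes in each comparison were Col1a1, Col1a2, Col3a1, Timp1, Acta2 and Lrat and the 5 called genes with the smallest p in each direction. Of the 47 genes, 19 share exon bases with another annotated gene. DESeq2, other scaling, no filter, all 6 groups together and left-out libraries were alternatives. The fit was tested on simulated data. Labels name no separate animals for all libraries, so p-values measure the spread between libraries. Some genes of the lists are not reported here by name.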

Additional observations from a re-analysis of the deposited data

Results flagged for a closer look

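Of 94 combinations of gene and DEN tumour group, 15 held a single high or low library, its gap divided by the group's range being above Dixon's 95% value. Chance gives about 4.7 in 94, and the genes are not independent. In the ALIOS DEN tumours T24 was far above the other 7 for 12 genes (log2 CPM): Col1a1 at 8.95, Col1a2 at 8.58, Col3a1 at 8.09, Tnc at 6.46, Col5a1 at 5.31, Col6a1 at 4.61, Col6a3 at 4.56, Col6a2 at 4.47, Tgfb1 at 3.77, Lox at 3.69, Lamb1 at 3.16 and Mmp9 at 2.53. T23 was far below for Sparc, at 6.26 against 8.31 to 9.69. In the control diet DEN tumours T17 was far above for Col1a2, at 6.87 against 3.78 to 4.58, and T21 far below for Sparc, at 8.06 against 9.87 to 10.07.

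The lone tumour of the control diet without DEN, T7, entered no comparison, and 13 of 47 genes were higher and 2 lower in it than in each of the 23 non-tumour livers, against 12.7% and 10.5% of the 26261 genes with a count in these 24 libraries. Nid1 was 332 CPM, Sparc 799 CPM and Acta2 12.8 CPM there. In T1, the library left out, which held the kidney transcript Kap at 23040 CPM, 15 of 47 genes were higher and 9 lower than in every non-tumour liver, against 26.3% and 16.5% of 26978 genes.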

How the results depend on the processing

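Livers and tumours were numbered separately and no label ties a shared number to a mouse or batch. In 15 checks over 3 comparisons, the deviations of a liver and the tumour of its number from their group means correlated at -0.205 to 0.391, and in 2 the liver correlated best with that tumour, so the numbers were not taken to pair libraries. With that number as a replicate block, 13 genes were higher and 6 lower in spontaneous ALIOS tumours (26.2% and 25.7% of all genes). Timp1 (0.86) and Eln lost their calls there. In ALIOS DEN tumours the block gave 17 and 7 (25.1% and 19.4% of all genes). None of all genes was called with it in the difference of the diet effect. Of the fold changes of called and named genes under all alternatives, 1267 kept direction and side of the threshold, 107 lost their call, 18 gained one and 17 turned sign. By diet in liver, DESeq2 kept the 11 higher genes and also called Col1a1, Sparc and Bgn, where 8.88% of all genes were higher. In edgeR the 11 became 7 with no filter (3.64% of all genes) and 2 with all 6 groups fitted together. They became 6 to 17 when each of the 23 livers of the diet comparison was left out in turn. All genes called there were 923 higher and 619 lower; with all 6 groups together they were 485 and 138, with DESeq2 981 lower, and 609 to 1259 and 339 to 1084 without one liver. Leaving out T5, T6, T11 or N17 gave 13 to 22 higher and 4 to 7 lower in spontaneous ALIOS tumours. Over all genes 25.9% to 30.8% were higher and 22.3% to 25.4% lower there. Leaving out T23, T24 or N17 gave 15 to 21 and 6 to 9 in ALIOS DEN tumours (25.4% to 29.8% and 20.7% to 22.6%). In control diet DEN tumours leaving out N10 or any one of T17 to T21 gave 30 to 34 and 4 to 5. The shares of all genes were 23.9% to 27.1% and 22.1% to 25.6%. With all 6 groups together 1 gene (Loxl2) was higher in DEN than in spontaneous ALIOS tumours, and 337 and 66 of all genes were called; DESeq2 called 51 and 24. In DEN tumours by diet, DESeq2 called 70 and 85 genes and all 6 groups together 171 and 125, none of the 47. For the difference of the diet effect, 0 to 5 genes were lower without one of 7 libraries, 2 without N17 and T24, and 4 in DESeq2. All genes were 162 higher and 192 lower, 322 and 335 in DESeq2 and 329 and 403 without T24. Without N17 and T24, 1.38% of all genes were higher and 1.76% lower. The cause of these shifts was not tested.

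Among Col1a1, Col1a2, Col3a1, Timp1, Acta2 and Lrat and the called genes, these signs turned. Between DEN and spontaneous ALIOS tumours without T24, Col1a1 was -0.44, Col1a2 -0.33, Col3a1 -0.21 and Acta2 -0.12. In DEN tumours by diet without T24, Col1a1 was -1.93, Col1a2 -1.58 and Acta2 -0.23; in DESeq2, which replaced outlying counts of these genes, -1.83, -1.52 and -0.21; leaving out T24 or one of T17 to T21 gave -1.93 to 1.98 for Col1a1, -1.58 to 1.59 for Col1a2, -1.04 to 0.43 for Col3a1 and -0.23 to 1.08 for Acta2. In the difference of the diet effect Acta2 was -0.65 without T24, -0.56 without T24 and T17 -0.44 without T24 and N17 and -0.18 with the block, and without one library the range was -3.64 to 0.26 for Col1a1, -2.89 to 0.27 for Col1a2 and -0.65 to 0.66 for Acta2. Fits without 2 libraries, without T5, T6, T11, T23, N10 or N17 outside the diet comparison in liver, and with the block were added after the data were seen. Without TMM factors, the correlation of Col1a1 with Cd68 in control liver was 0.62 (adjusted permutation p = 0.0696, n = 12). The other Pearson correlations kept their side of the threshold, and the mean levels checked stayed within 1 SD. By Spearman, Acta2 with Col1a1 over the 12 ALIOS tumours passed without TMM (rho 0.699, adjusted permutation p = 0.0429) and not with it. The 5 control diet DEN tumours and the counts of Timp1, Lox, Mmp9 and Mmp13, near 1 CPM, limit precision.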
